A study of Mus musculus with 27 samples.

Results

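The genes described here are 47 transcription factors that direct the development of tissues other than heart muscle, such as brain, eye, kidney, skeleton, skeletal muscle, pancreas and thyroid. They were chosen by name, from the Pax, Lhx, Dlx, sine oculis-related (*Six2*, *Six3*, *Six4* and *Six6*), Nkx, Sox, neuronal and muscle bHLH, Pdx, Otx, En and Emx families, as factors held to be mostly silent in heart muscle. Of the 47 genes, 46 had an entry among the 22367 protein-coding genes of the annotation (GENCODE vM1, mouse assembly NCBIM37, also called mm9), and *Sox1* was not analysed here. A region of H3K4 methylation was assigned to a gene when it touched the gene body or lay within 5 kb of an annotated transcription start site (TSS). This gave the 46 genes 286 of the 194694 regions assigned to coding genes, and no region belonged to a pair of them. Whether these genes were silent in these hearts cannot be read from region lists, so that part of the description was not checked.

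Chromatin immunoprecipitation with sequencing (ChIP-Seq) was performed for mono-, di- and tri-methylated histone H3 lysine 4 (H3K4me1, H3K4me2 and H3K4me3) in C57BL/6 mouse embryo hearts at stage E11.5. Control hearts were *Tnnt2::Cre;Kmt2d fl/+;mTmG/+* and mutant hearts were *Tnnt2::Cre;Kmt2d fl/fl;mTmG/+*, so every heart carried Cre and at least 1 floxed copy of *Kmt2d*, which encodes an H3K4 methyltransferase, and the controls, although titled WT, had 1 floxed copy. Each genotype had 3 pools of 30 hearts, each with an input and an immunoprecipitation per mark. Cre driven by the *Tnnt2* promoter acts in heart muscle cells, and other cells of the heart kept *Kmt2d*. KMT2D ChIP-Exo libraries from cardiomyocytes derived from embryonic stem cells were not analysed here.

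The deposited data are 3 lists of regions. The first holds 358833 regions merged by the authors over the 3 marks and all replicates. The others hold the regions that the authors called lower in the mutant at a false discovery rate below 0.1, 2730 for H3K4me1 and 6699 for H3K4me2, and each of these matched a merged region exactly. The deposited H3K4me2 list differs in length from the number of such regions in the study's text, so whether that threshold applies to the list as deposited could not be checked. The lists give positions only. A merged region does not say which of the 3 marks was present, how strong it was or in which genotype, the read depth behind it is unknown, and no difference could be set against the spread between pools. In the text, H3K4me1-decreased and H3K4me2-decreased mean a place in those lists, and a region outside them may still have changed. In pooled tissue, fewer cells with a mark and less of the mark per cell cannot be told apart.

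H3K4me3 marks the starts of genes, H3K4me1 is typical of enhancers, and H3K4me2 is found at both. The starts of developmental regulators are rich in CpG, the dinucleotide that most of the mouse genome has lost, and H3K4 methylation is often found at CpG-rich starts also where the gene is not transcribed. In many cell types the same starts also carry repressive H3K27me3, an arrangement known as bivalent chromatin. That mark was not part of these data.

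The sequences that the results turn on are given first, read from NCBIM37, 5′ to 3′, with each CG dinucleotide in capitals. The search letters CG read the same on both strands. The first set is shown because these 3 stretches lie in the H3K4me1-decreased regions of the genes. The *Lhx6* region is chr2:35965386-35965465 and the *Pax5* region chr4:44674386-44674465, each printed whole, and the *Lhx1* stretch, chr11:84343296-84343495, is the central 200 bases of a region of 1460 bp. All 3 are given on the plus strand.

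Lhx6 region: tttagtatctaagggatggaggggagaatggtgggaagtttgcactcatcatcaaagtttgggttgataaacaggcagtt
Pax5 region: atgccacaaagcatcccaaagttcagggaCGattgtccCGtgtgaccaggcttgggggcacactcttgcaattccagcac
Lhx1 stretch: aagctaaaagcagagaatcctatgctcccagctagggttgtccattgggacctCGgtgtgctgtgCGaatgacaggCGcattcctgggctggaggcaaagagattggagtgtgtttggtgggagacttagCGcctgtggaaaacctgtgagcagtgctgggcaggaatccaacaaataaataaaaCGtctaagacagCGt

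The 80 bases of the *Lhx6* region held 0 CG, those of the *Pax5* region held 2, and the 200 bases of the *Lhx1* stretch held 6. The 2 short regions could be placed in the genome, since 0 of the 4 words of 32 bases tested from each occurred elsewhere in the assembly.

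The second set is the 200 bases just upstream of the 5′-most coding start of 5 genes, on the strand of the gene. *Six4* is shown as the gene whose whole start region was H3K4me2-decreased, *Dlx2* for the widest region, *Neurog1* for a narrow region on a CpG-rich start, and *Myod1* and *Myf5* as related genes with and without a region over the start. The positions are chr12:74214402-74214601 for *Six4*, chr2:71384812-71385011 for *Dlx2*, chr13:56353525-56353724 for *Neurog1* and chr10:106923191-106923390 for *Myf5*, all on the minus strand, and chr7:53631644-53631843 on the plus strand for *Myod1*.

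Six4 upstream: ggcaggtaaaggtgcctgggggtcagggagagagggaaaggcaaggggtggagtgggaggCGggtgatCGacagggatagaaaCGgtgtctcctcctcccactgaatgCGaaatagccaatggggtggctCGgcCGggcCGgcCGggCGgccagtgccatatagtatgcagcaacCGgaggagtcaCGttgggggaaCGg
Dlx2 upstream: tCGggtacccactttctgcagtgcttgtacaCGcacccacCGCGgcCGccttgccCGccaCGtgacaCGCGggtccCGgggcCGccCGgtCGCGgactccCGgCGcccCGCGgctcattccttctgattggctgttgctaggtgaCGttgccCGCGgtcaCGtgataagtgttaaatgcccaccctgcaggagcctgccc
Neurog1 upstream: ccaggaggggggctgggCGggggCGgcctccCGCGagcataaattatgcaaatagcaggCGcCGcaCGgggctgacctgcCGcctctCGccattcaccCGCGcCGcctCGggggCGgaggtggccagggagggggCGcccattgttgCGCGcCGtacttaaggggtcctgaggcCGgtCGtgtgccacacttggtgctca
Myod1 upstream: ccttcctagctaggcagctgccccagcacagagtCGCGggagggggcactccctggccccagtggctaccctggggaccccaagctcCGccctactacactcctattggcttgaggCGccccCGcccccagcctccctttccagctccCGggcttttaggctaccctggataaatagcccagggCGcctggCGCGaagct
Myf5 upstream: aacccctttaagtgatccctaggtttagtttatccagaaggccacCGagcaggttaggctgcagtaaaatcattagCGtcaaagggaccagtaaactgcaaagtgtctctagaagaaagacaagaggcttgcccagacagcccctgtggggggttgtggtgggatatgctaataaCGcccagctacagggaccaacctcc

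Upstream of the start there were 22 CG in *Dlx2*, 20 in *Neurog1*, 12 in *Six4*, 9 in *Myod1* and 3 in *Myf5*.

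The starts of these genes were marked almost without exception. All 46 genes had at least 1 region, and 45 of 46 (97.8%, 95% Wilson interval 88.7 to 99.6) had a TSS inside a region, against 15752 of 22367 coding genes (70.4%). The exception was *Myf5*, a factor that starts the skeletal muscle program. Intervals here treat genes as independent draws and do not cover the variation between pools. Of 152 annotated TSS of the 46 genes, 126 (82.9%) were inside a region, against 66.3% of the TSS of all coding genes. Every annotated TSS was inside in 35 genes, and 10 genes had TSS inside and outside. The 5′-most coding start was inside in 41 genes. In *Pax8*, *Dlx1*, *Nkx2-2* and *Otx2* that position was outside and another TSS of the gene was inside.

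In width, marked sequence at these genes was of ordinary extent. The median gene had 4 regions (5 for coding genes with a region), with a total width of 6680 bp (6520 bp for those coding genes), and 35 of 46 genes lay between the quartiles of coding genes, 2960 and 12820 bp. Among the 45 genes with a TSS inside, the widest region over a TSS had a median width of 3720 bp, equal to the 3720 bp of coding genes. In 29 genes it lay between the quartiles of coding genes, 2400 and 5840 bp, in 5 it was wider and in 11 narrower. The widest region over a TSS is called the TSS region of a gene here, and it need not hold the 5′-most start. No gene had a TSS region over 10 kb, a width reached by 8.33% of coding genes with a TSS inside. Regions that held a TSS numbered 61 and made up 55.7% of the 367140 bp covered. The other regions were short, with a median of 520 bp. Relative to gene size the marked share was higher. The genes had a median length of 7681 bp, against 18272 bp for coding genes with a region. Coverage was taken over the gene body and 5 kb on each side of each TSS, with no flank added at the gene end. Regions covered a median of 38.4% of that sequence, against 21.9% for those coding genes.

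**Figure D1:**
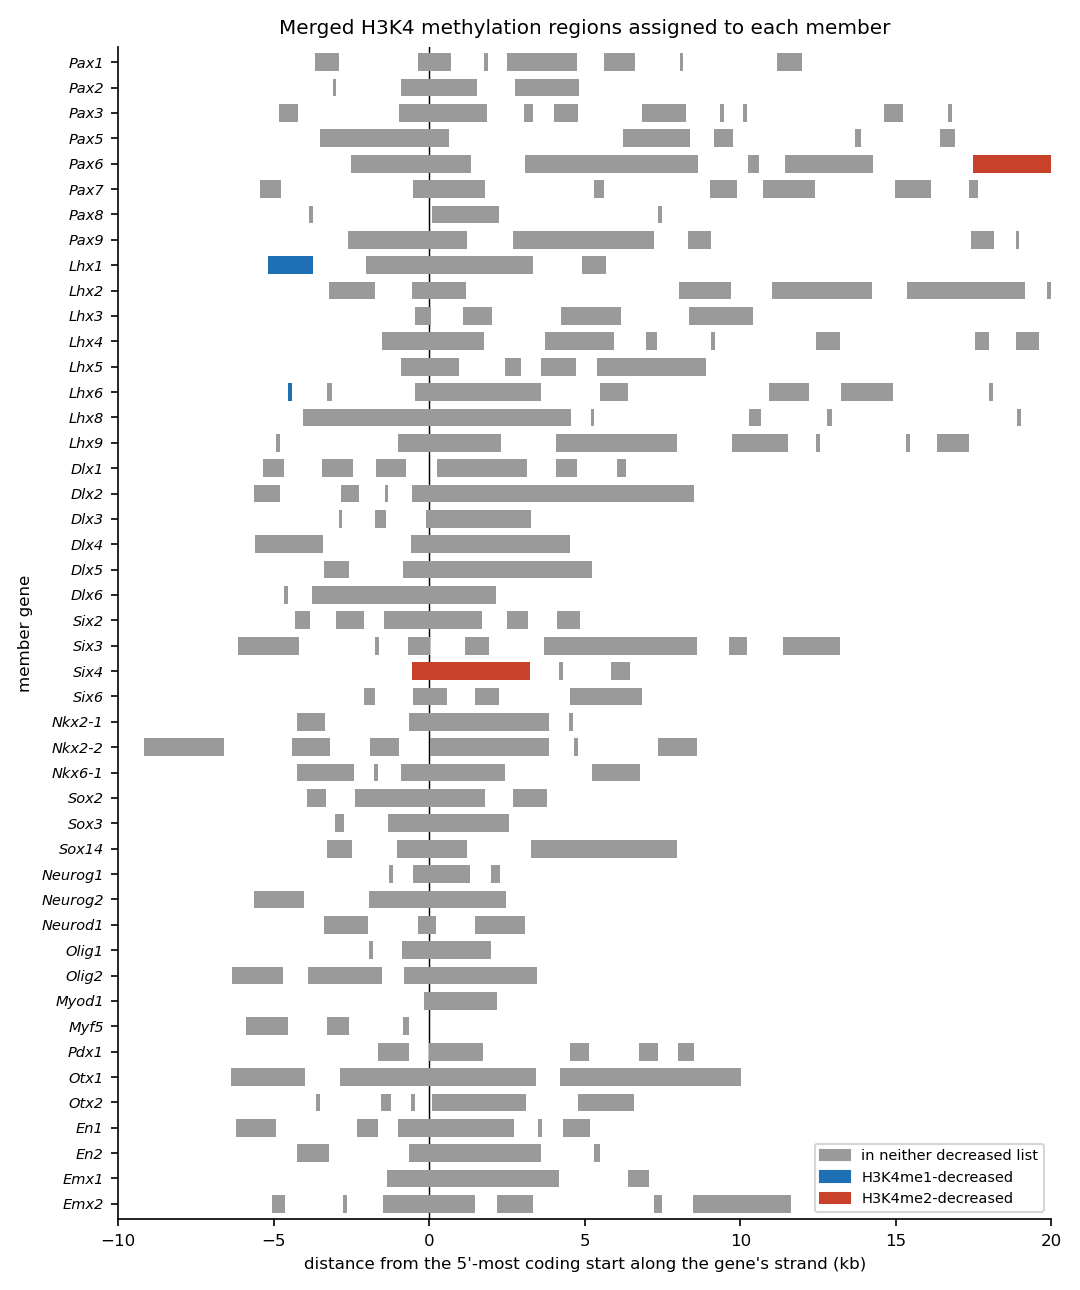
Every merged region assigned to each of the 46 genes (rows), drawn by its distance in kb from the 5′-most coding start along the strand of the gene, from 10 kb upstream to 20 kb downstream; regions farther downstream in long genes, including the H3K4me1-decreased region of *Pax5*, are not shown. Grey bars are in neither decreased list, blue bars are H3K4me1-decreased and red bars H3K4me2-decreased. Grey bars lie over the zero line in most rows, *Six4* has the only red bar over it, and *Myf5* has no bar there.

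Very few of the genes were called decreased. Of 46 genes, 5 had a region in either decreased list (background 32.9% of 20025 coding genes with a region), none was in both lists, and 41 were in neither. For H3K4me2, 2 genes were called, *Pax6* and *Six4* (4.35%, 95% Wilson interval 1.20 to 14.5), and the background was 28.7%. For H3K4me1, 3 genes were called, *Lhx1*, *Lhx6* and *Pax5* (6.52%, 2.24 to 17.5), close to the background of 7.08%, which is no result about these genes. By TSS, an H3K4me2-decreased region covered a TSS in 2 of 45 genes (4.44%, 1.23 to 14.8) against 29.2% of coding genes with a TSS inside a region. An H3K4me1-decreased region covered a TSS in none of the 45 (upper Wilson limit 7.87%), where the background was 1.29%. By region, 2 of 286 (0.699%) were H3K4me2-decreased against 2.69% of the regions of coding genes, and 3 of 286 (1.05%) were H3K4me1-decreased against 0.935%. Among the 61 regions that held a TSS of these genes, 2 were H3K4me2-decreased (3.28%, 0.904 to 11.2), against 4003 of the 17752 regions that held a coding TSS (22.5%).

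The called share of coding genes rose with their total region width, so each share was set beside that of coding genes in the same decile of that width. Coding genes of like width were H3K4me2-decreased in 32.2%, so the difference, the 46 genes minus coding genes, was -27.8 percentage points. In the deciles from 5060 to 15300 bp, which held 31 of the 46 genes, 30.6 to 40.1% of coding genes were called and 0 of the 31 were. The called genes were *Six4* in the decile from 3660 to 5040 bp and *Pax6* in that from 15320 to 26560 bp, each alone among 5 of the 46. For H3K4me1 the coding genes of like width had 4.54%, a difference of 1.98 points that changed sign under other definitions of width and distance. By the widest region over the TSS, H3K4me2-decreased TSS were found in 0 of 6 of the genes under 2 kb (coding genes 7.53%), 1 of 21 from 2 to 4 kb (27.1%), 1 of 14 from 4 to 6 kb (34.7%) and 0 of 4 from 6 to 10 kb (40.9%). The upper Wilson limits of these 4 small classes were 39.0, 22.7, 31.5 and 49.0%, and those of the first and the last include the share of coding genes.

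**Figure D2:**
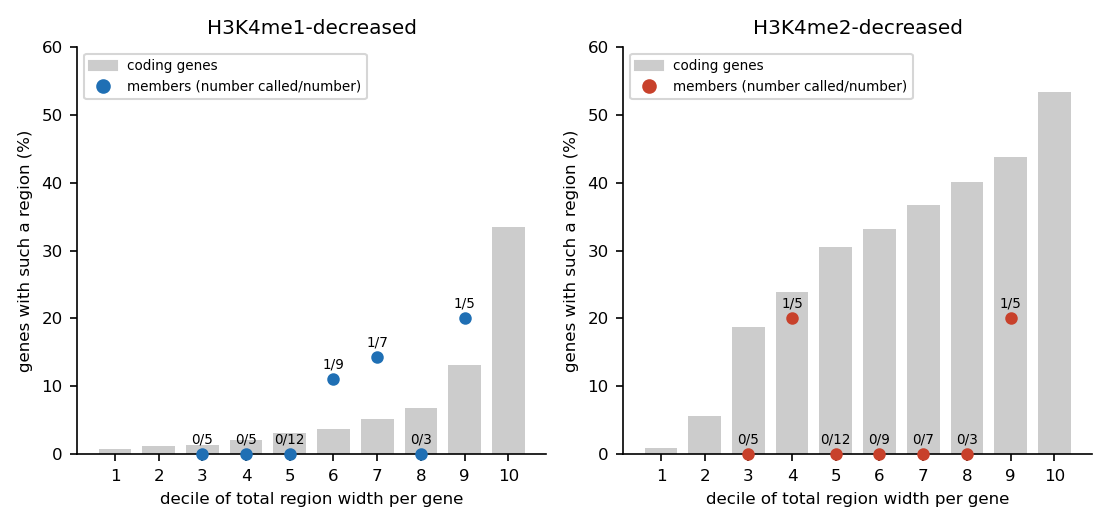
Share of genes (%) with an H3K4me1-decreased (left) or H3K4me2-decreased (right) region by decile of the total region width per gene, for coding genes with a region (grey bars) and for the 46 genes (points, with the number called over the number in the decile). On the right, the points are at 0 in all but 2 of the 7 deciles that hold any, while the bars rise from 0.942 to 53.4%.

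*Six4* was the only one of the 46 genes whose 5′-most start was in an H3K4me2-decreased region. It encodes a homeodomain factor of muscle and sensory organ precursors. Its region of 3780 bp, chr12:74211166-74214945, held both annotated TSS and touched 4 exons. It reached 544 bp upstream and 3235 bp downstream of the start. The gene, on the minus strand, had 2 further regions, of 80 and 600 bp, outside the decreased lists. Its CpG observed over expected was 0.61, among the lower of the CpG-rich starts.

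*Pax6*, which directs eye, brain and pancreas development, had 8 regions over 18260 bp, and 21 of its 29 annotated TSS were inside one. The H3K4me2-decreased region was the fifth along the gene, chr2:105526546-105531465 (4920 bp), which held 1 TSS and touched 1 exon, 17493 bp downstream of the 5′-most coding start. The region over that start (3860 bp, 4 TSS) and the region after it (5580 bp, 9 TSS) were outside both lists. The call was therefore at an internal part of the gene and not at its first starts.

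The H3K4me1-decreased regions held no annotated TSS and lay away from the TSS of their own genes. Distances to the TSS of other genes were not measured. In *Lhx1*, required for head and kidney formation, the region was 1460 bp wide, chr11:84342666-84344125, and lay 3743 bp upstream of the start inside the body of the long non-coding RNA gene *1500016L03Rik*, touching none of its exons. The TSS region of *Lhx1*, 5380 bp wide, was in neither list. In *Lhx6*, which directs the development of cortical interneurons, the region had 80 bp and lay in no annotated gene. It was 4458 bp from the nearest TSS of *Lhx6*, close to the limit of 5 kb. In *Pax5*, the B cell factor, the region also had 80 bp and was intronic, 22222 bp from the nearest TSS of *Pax5*. Just outside the limit of 5 kb was an H3K4me2-decreased region at chr11:84325606-84327865, 8.35 kb from a TSS of *Lhx1*, which held a TSS of the neighbouring gene *Aatf*.

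Distances were measured from the start to any decreased region, the gene's own included. They therefore partly repeat the calls above and do not describe the surroundings alone. The nearest H3K4me2-decreased region was under 50 kb from the 5′-most coding start in 6 of 46 genes (13.0%, 6.12 to 25.7) against 48.9% of coding genes with a region. These were *Six4*, *Lhx1*, *Pax6*, *Lhx3*, *Six3* and *Six6*, at distances of 0 to 35.9 kb. The median distance was 151 kb for the 46 genes and 52.9 kb for coding genes with a region. For H3K4me1 the count was also 6 of 46, against 13.9% of coding genes. *Dlx3* and *Dlx4* shared 1 of these H3K4me1-decreased regions, chr11:94957886-94960345, at 21.1 and 47.2 kb.

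The Pax genes, named for the paired domain, had the most regions, 5 to 28 per gene, in gene bodies that were long. *Pax5* had 28 regions, *Pax7* 27 and *Pax3* 24, and the last 2 act in neural crest and muscle progenitors. The widest TSS regions of the family were those of *Pax6* (5580 bp), *Pax9* (4540 bp) and *Pax5* (4140 bp). In *Pax6* and *Pax9* the region over the 5′-most start was another one, of 3860 and 3820 bp. *Pax9* is needed for teeth and pharyngeal pouches, as *Pax1* is for the vertebral column. *Pax1*, *Pax2*, *Pax3*, *Pax7* and *Pax8* had TSS regions of 2160 to 2820 bp, and in *Pax1* the region over the 5′-most start had 1060 bp. *Pax2*, a kidney and ear factor, had all 5 of its TSS inside. *Pax8*, a thyroid factor, had 2 of 7 inside. The family had the lowest coverage of the larger families, a median of 15.9% of the gene body and 5 kb around each TSS.

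The Lhx genes, LIM homeodomain factors of brain, pituitary, kidney and gonad, had 3 to 11 regions and total widths of 5400 to 15580 bp. *Lhx8*, a factor of cholinergic neurons, had the second widest single region of the 46 genes, 8640 bp at chr3:153989046-153997685, which held 4 of its 5 TSS, reaching 4070 bp upstream and 4569 bp downstream of the start. *Lhx5* and *Lhx3* had narrow TSS regions of 1860 bp (chr5:120880986-120882845) and 1940 bp. That of *Lhx3* was internal, and the region over its 5′-most start had 500 bp. *Lhx5* acts in the forebrain and *Lhx3* in the pituitary. In *Lhx2*, *Lhx4*, *Lhx6* and *Lhx9* the TSS region had 3220 to 4080 bp. In *Lhx2* and *Lhx9* it was internal, and the region over the 5′-most start had 1720 and 3320 bp.

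The Dlx genes, which pattern the branchial arches and forebrain, lie in pairs and had the widest TSS regions of any family, with a median of 5510 bp and a range of 2880 to 9060 bp. The pairs lie close together, with a gap of 9.43 kb between *Dlx1* and *Dlx2*, 15.2 kb between *Dlx3* and *Dlx4* and 9.24 kb between *Dlx5* and *Dlx6*, yet each gene had regions of its own. *Dlx2* had the widest region of the 46 genes, 9060 bp at chr2:71376306-71385365, of which 8505 bp lay downstream of the start and 554 bp upstream. In *Dlx5* the region had 6100 bp (chr6:6826846-6832945) with 5239 bp downstream. In *Dlx6* it had 5920 bp (chr6:6809566-6815485) with 3768 bp upstream. The median coverage of the gene body and 5 kb around each TSS was 59.8% in this family. None of the 6 Dlx genes was in a decreased list (background 32.9% for either list).

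**Figure D3:**
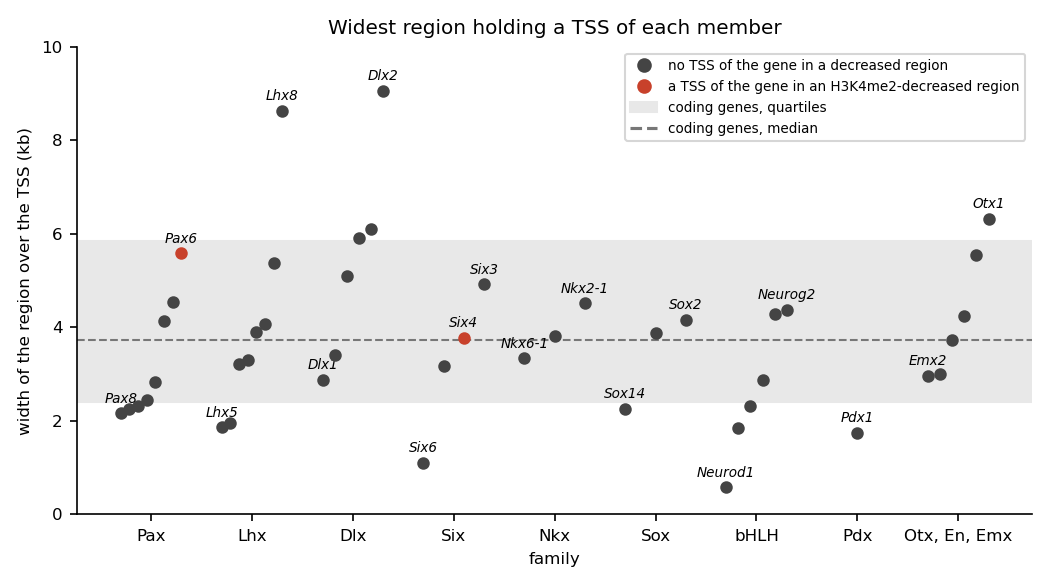
Width in kb of the widest region over a TSS for the 45 genes with a TSS inside a region, by family, each point a gene. The grey band spans the quartiles of coding genes and the dashed line is their median. Red points are *Pax6* and *Six4*, the genes with a TSS in an H3K4me2-decreased region, which for *Pax6* is a narrower region than the one plotted. *Dlx2* and *Lhx8* stand highest and *Neurod1* lowest.

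Of the genes related to *Six4*, *Six3* and *Six6* act in eye and forebrain and *Six2* keeps kidney progenitors. *Six6* had a TSS region of 1100 bp at chr12:74040406-74041505 and a wider region of 2320 bp without a TSS. By the widest region over a TSS it was the second narrowest of the 45 genes with a TSS inside. *Six3* had a region of 720 bp over its 5′-most start and a wider one, of 4920 bp, over other TSS. *Six3* had 7 regions with a total of 10900 bp, and *Six2* a TSS region of 3160 bp. *Six6* and *Six4* lie 155 kb apart on chromosome 12.

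Of the Nkx genes, *Nkx2-1*, the factor of thyroid and lung, had a TSS region of 4520 bp. *Nkx2-2*, of ventral neural tube and pancreatic islets, had 3820 bp, and *Nkx6-1*, of motor neurons and beta cells, had 3340 bp. The 3 Nkx genes lay between the quartiles of coding genes in TSS region width and in total width (5480 to 9880 bp). The family also includes *Nkx2-5*, a core heart factor, which was H3K4me2-decreased over its TSS in a region of 22900 bp.

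The Sox genes *Sox2* and *Sox3*, which maintain neural progenitors, had TSS regions of 4160 and 3880 bp. *Sox14*, an interneuron factor, had a TSS region of 2260 bp and a wider one of 4700 bp that held no TSS.

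The bHLH genes had the least marked sequence, with a median total width of 2940 bp. *Neurod1*, a factor of neuronal and islet differentiation, had the lowest width of the widest region over a TSS. It was 580 bp at chr2:79296706-79297285, with regions of 1420 and 1580 bp on either side that held no TSS. A single region with a TSS was narrower in *Lhx3*, at 500 bp, where another region over a TSS was wider. *Neurog1*, which commits cells to a sensory neuron fate, had 1840 bp at chr13:56352206-56354045, and *Neurog2* had 4380 bp. *Olig1* and *Olig2*, of oligodendrocytes and motor neurons, had 2880 and 4280 bp. *Myod1*, which turns cells into skeletal muscle, had a single region, of 2320 bp, over its start. *Myf5* had 3 regions, all upstream, of 200, 700 and 1360 bp, the nearest, chr10:106923846-106924045, 656 bp from its start and the farthest, chr10:106927726-106929085, 4536 bp from it.

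*Pdx1*, the pancreas factor, had a TSS region of 1740 bp, chr5:148081526-148083265, that reached 9 bp upstream and 1730 bp downstream. Of the head and brain genes, *Otx1* had a TSS region of 6320 bp, chr11:21899466-21905785, and 14520 bp in all. Its regions covered 85.8% of the gene body and 5 kb around each TSS, the highest share of the 46 genes. *Otx2*, needed for the forebrain, had 3000 bp. *En1* and *En2*, which pattern midbrain and hindbrain, had 3720 and 4240 bp. *Emx1* and *Emx2*, which act in the cortex, had 5540 and 2960 bp. None of these 7 genes was in a decreased list (background 32.9% for either list).

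As in coding genes, the regions over the start extended mostly into the gene. In the 41 genes with the 5′-most coding start inside, the region reached a median of 900 bp upstream and 1991 bp downstream, and the downstream part was the longer in 32 of 41. In coding genes the medians were 1156 and 2159 bp, and the downstream part was the longer in 74.6%.

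A feature that the choice of genes did not use was the sequence at the start. CpG observed over expected in the 1000 bases around the 5′-most coding start had a median of 0.69 in the 46 genes. The median was 0.55 in all coding genes and 0.61 in those with a region. A start with a ratio of at least 0.6, called CpG-rich here, was found in 36 of 46 genes (78.3%, 64.4 to 87.7). It was found in 46.0% of all coding genes, which include genes without a region. Of the 20025 coding genes with a region 10222 had such a start, and of the 15752 with a TSS inside 10132 did, so the contrast with marked genes is smaller. The highest ratios were those of *En2* (1.01) and *Six2* (0.94). The 10 genes below 0.6 were *Pax5*, *Pax6*, *Pax8*, *Lhx3*, *Lhx9*, *Sox14*, *Myod1*, *Myf5*, *Pdx1* and *Otx2*, and the lowest ratio was 0.22, in *Pax8*. A TSS was inside a region in 98.6% of coding genes with a CpG-rich start and in 46.5% of the others. Among CpG-rich coding genes with a region 42.6% were H3K4me2-decreased, whereas 1 of the 36 CpG-rich genes, *Six4*, was (2.78%). Against CpG-rich coding genes of like region width (40.0%), the difference was -37.3 points. This difference was larger than the -27.8 points over all starts. The share of coding genes of like width was higher here (40.0% against 32.2%), and *Pax6*, with a CpG-poor start, was left out. Whether CpG content bears on the calls was not tested.

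**Figure D4:**
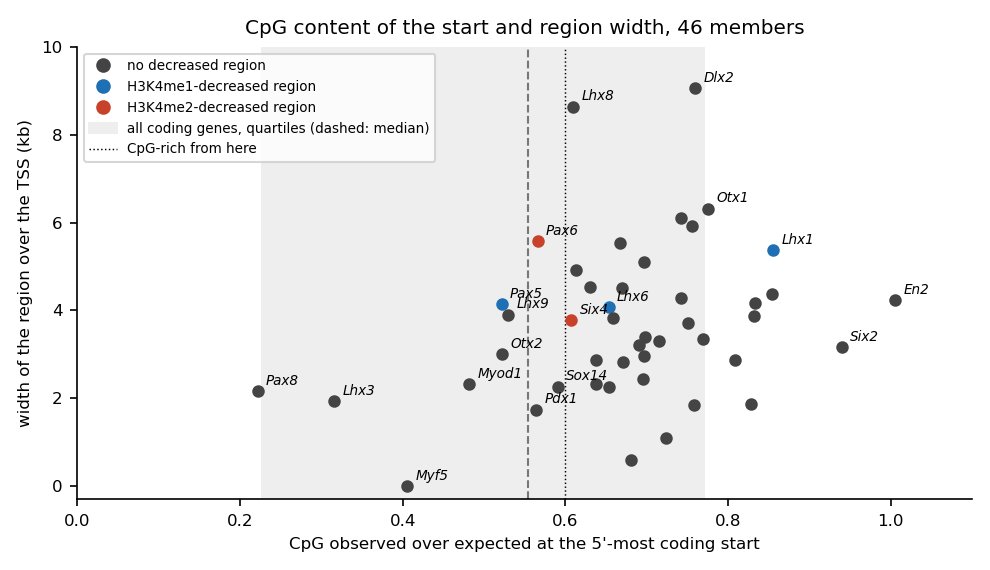
CpG observed over expected in the 1000 bases around the 5′-most coding start (horizontal) and width in kb of the widest region over a TSS (vertical, 0 where no TSS was inside) for the 46 genes. The grey band spans the quartiles of all coding genes, the dashed line is their median and the dotted line marks 0.6. Most points lie to the right of 0.6, *Myf5* lies at 0 width, and the 5 coloured points with a decreased region do not lie apart from the others.

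Other lists put these counts in context. Over all coding genes with a region, 28.7% were H3K4me2-decreased, 7.08% H3K4me1-decreased and 32.9% in either list. Of 54 further developmental factors of like families 45 had a TSS inside a region, and 4 (7.41%, 2.92 to 17.6) were H3K4me2-decreased, namely *Pou3f3*, *Lmx1a*, *Sox11* and *Rax*. One of the 54, *Lmx1b*, was H3K4me1-decreased. Of 39 Hox genes, 34 had a TSS inside and 0 were in either decreased list (upper Wilson limit 8.97%). The median total width was 5080 bp in the 54 factors and 4600 bp in the Hox genes. In the deciles that hold these medians, 30.6 and 23.8% of coding genes were H3K4me2-decreased. Of 13 core heart factors, all had a TSS inside, and 10 (76.9%, 49.7 to 91.8) were H3K4me2-decreased. By H3K4me1, 3 of the 13 (23.1%, 8.18 to 50.3) were called. The median total width of the 13 was 38600 bp. Of the 13, 10 were wider in total than any of the 46 genes, the widest of which had 18660 bp. The other 3 were *Srf* (10540 bp), *Hand1* (11000 bp) and *Isl1* (11480 bp), of which *Isl1* was H3K4me2-decreased, and the difference in width was not otherwise taken into account. Olfactory receptor genes, which serve smell and mostly have CpG-poor starts, had a TSS inside in 15 of 1087 (1.38%). Of the 550 with a region, 6 (1.09%) were H3K4me2-decreased. They had little marked sequence, with an upper quartile of total width of 160 bp over all 1087. In the narrowest decile, from 60 to 620 bp, 0.942% of coding genes were H3K4me2-decreased, so the 1.09% is no result about olfactory genes.

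Markers of cell types were counted in the same way. Of 7 heart muscle markers, 7 had a TSS inside a region, with TSS regions of 7860 to 19000 bp, and so had 16 of 18 markers of other cell types that a dissected heart could hold. Endocardial (4 of 4), epicardial (3 of 3), blood (3 of 4), neural crest (3 of 4) and endoderm (3 of 3) markers had a TSS inside. Since 45 of the 46 factors of other tissues did too, a region over a TSS does not tell which cells were sampled. By H3K4me2, 2 of the 7 heart muscle markers (28.6%, 8.22 to 64.1) and 3 of the 18 other markers (16.7%, 5.84 to 39.2) were called. The background was 28.7%, which is not matched on width. The heart muscle markers were wide, with total widths of 12960 to 140500 bp. In the deciles from 11000 bp upward, 40.1 to 53.4% of coding genes were called. The share of the heart muscle markers was thus near the unmatched background and below that of wide genes, and 7 genes give a wide interval. By H3K4me1, 2 of the 7 heart muscle markers (28.6%, 8.22 to 64.1) and 1 of the 18 other markers (5.56%, 0.988 to 25.8) were called. The background was 7.08%, and in the deciles from 11000 bp upward 6.79 to 33.4% of coding genes were H3K4me1-decreased. What part of the regions of the 46 genes came from cells in which Cre was not active was not tested.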

How the data were processed

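Reads were processed by the authors on mm9; the submitters' notes name CASAVA 1.8.2, FastQC, Bowtie, Bowtie2 and SAMtools. How peaks were called, and how the decreased regions were tested, is not given in the sources used here; the study places its ChIP-Seq pipeline in a supplement that was not used here. The deposited lists hold region positions only (start and end in bp), made by the authors over pooled replicates, so depth is unknown and no test between groups was run. Groups came from the sample titles of 27 libraries. Coordinates are 1-based. A gene's called share is given with a 95% Wilson interval, and the share of coding genes of like width is the mean over the genes' own deciles of total region width (direct standardisation, tested on simulated data). Symbols with several annotation entries were counted once in gene lists. Named in detail were genes with a decreased region or no TSS inside, and the 5 with the widest region and the 5 with the narrowest TSS region; CpG content, neighbours and 2 alternatives were added after the data were seen. The genes and lists were chosen with earlier results of these data known. Python 3.11.15, numpy 2.4.6 and pandas 2.3.3 were used.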

Additional observations from a re-analysis of the deposited data

How the results depend on the processing

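Over 7 results and 51 alternative values, 44 were counted as unchanged, 3 as moved and 4 as changed in sign. For shares, unchanged meant within the stated interval of the reported value, and for the median width within 1.5 times. No interval is stated here for the differences from coding genes of like width, so for these only the direction and the values below can be read. The share of genes with an H3K4me1-decreased region was 2.17% with a window of 1 kb, where *Lhx1* and *Lhx6* lie outside, and also 2.17% with regions of at least 500 bp, where the 80 bp regions of *Lhx6* and *Pax5* are left out. The H3K4me1 difference from coding genes of like width became -1.36 points with the window of 1 kb, -1.09 with regions of at least 500 bp, -0.0591 with classes of the widest single region and -0.887 with classes of the region over the TSS, an alternative added after the data were seen. The H3K4me2 difference ranged from -23.9 to -37.3 points, the latter among CpG-rich starts only, also added then. With a window of 10 kb, *Lhx1* joined *Pax6* and *Six4* as H3K4me2-decreased. Leaving out single replicates could not be done, because the lists hold no replicate values. No paired analysis was possible because the lists carry no replicate numbers and the results come from no test. Counts rest on the 46 genes in the annotation, and with 46 genes an interval such as 1.20 to 14.5% is wide.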

Other observations

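The neighbours of the genes were counted as well, after the data were seen. For each of the 46 genes the nearest coding gene with a region that was in none of the developmental, Hox or olfactory lists was taken, which gave 39 distinct neighbours at a median gap of 34.6 kb and with a median total region width of 9000 bp. Of these, 12 (30.8%, 95% Wilson interval 18.6 to 46.4) were H3K4me2-decreased and 3 (7.69%) were H3K4me1-decreased, against 28.7% and 7.08% of coding genes with a region. These shares are not matched on width. In the decile that holds 9000 bp, 36.7% of coding genes were H3K4me2-decreased and 5.21% H3K4me1-decreased. At 11 of the 46 genes the neighbour was under 10 kb away, and it was H3K4me2-decreased at 5 and not at 6. *Aatf*, 4.46 kb from *Lhx1*, *Morn5*, 2.23 kb from *Lhx6*, *Metap1d*, 2.92 kb from *Dlx1*, *Ehbp1*, 2.93 kb from *Otx1*, and *Sfxn5*, 8.59 kb from *Emx1*, were H3K4me2-decreased, and the 5 developmental genes beside them were not. *Elp4*, which overlaps *Pax6*, was not H3K4me2-decreased while *Pax6* was, and neither gene of the pair was at *Pax9*, *Lhx3*, *Lhx9*, *Six6* and *Neurod1*. *Metap1d* shared 2 regions with *Dlx1* and *Ehbp1* shared 1 with *Otx1*, none of them in a decreased list. In all, 13 of the 286 regions, at 7 of the 46 genes, were also assigned to another coding gene.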
